A study of Arabidopsis thaliana with 12 samples.

Results

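This is the age comparison of Arabidopsis hypocotyls that received no auxin: 3 arrays of mature, 35-day-old plants were set against 3 arrays of young, 7-day-old seedlings. The arrays were chosen by their labels, and they are 6 of the 12 in the series. All plants were of the ecotype Col-0, carried no listed mutation or transgene, and grew on full-strength MS, a mineral salt medium. The other 6 arrays, 3 mature and 3 young, came from hypocotyls of the same ages that had received auxin for 1 day, and they are used here to set the same age difference beside that found with auxin. The labels do not say which auxin was given or at what dose, and they do not say whether untreated hypocotyls were kept for a further day. Arrays of a group are labelled as biological replicates, with 10 ug of total RNA labelled for each array; whether each came from 1 plant or from a pool is not stated. Genes were measured with Affymetrix probe sets, groups of short oligonucleotides that match a transcript or, for some sets, several related ones.

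The hypocotyl is the stem between root and seed leaves. In a seedling it is a green organ that lengthens by cell expansion rather than by division, and its outer cells hold chloroplasts. In an older plant it no longer lengthens and thickens instead: the vascular cambium, a ring of dividing cells, lays down wood inward and phloem outward, and the epidermis and cortex give way to a corky periderm sealed with suberin. Auxin drives elongation, cambial division and, at high dose, the dividing tissue called callus. The deposited values carry no absolute levels, so the labelled organ could not be checked by the presence of its own markers.

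Values are given as deposited: log2 expression in which each probe set is expressed relative to its own median over the 12 arrays. A value of 1 lies 1 log2 unit above that median, and neither the height of 2 different genes nor presence or absence can be read from it. Array medians over the non-control probe sets lay between −0.0409 and 0.0519. Pearson correlations across probe sets were 0.937 to 0.964 between arrays of one untreated group and 0.286 to 0.450 between mature and young untreated arrays (probe sets are not independent replicates). The bacterial bioC spike-in control was low on arrays 1 and 2 of both untreated groups and not on array 3, so it was even over the ages. A GAPDH control transcript was measured near both ends. Its 3′ minus 5′ difference, a rough sign of RNA wholeness, was 0.21, 0.13 and 0.17 in mature arrays and 0.51, 0.33 and 0.36 in young arrays; the part of this in the results was not tested. In 4 other 3′ and 5′ pairs, for GAPDH, actin (2 pairs) and ubiquitin, the difference lay between −0.15 and 0.20 in mature arrays and between −0.27 and 0.19 in young ones, and the ages overlapped in each pair. These are whole organs, so fewer cells of a type and less RNA per cell cannot be told apart.

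A large share of the measured transcripts differed with age, about equally in each direction. Of 22746 probe sets, 10386 (45.7%) were called at a limma adjusted p under 0.05, 5171 of them higher in mature hypocotyls (22.7%) and 5215 lower (22.9%). At 2-fold or more, 1631 were higher (7.17%) and 1425 lower (6.26%); at 10-fold or more, 126 were higher and 123 lower. The mature and young arrays did not overlap in 53.4% of the probe sets. The median log2 fold change over all probe sets was −0.03. Gene lists were drawn only from probe sets with 1 annotated gene. Among these 41.2% were called in either direction, against 52.2% of the rest. Counts in gene lists are to be read against the 41.2%, whose directions were not counted separately. Of the called probe sets, 5566 have 1 annotated gene and may be named. Most lists cover only a part of their process. For mitosis and cytokinesis 54 names were written and 9 genes measured, for DNA replication 49 and 5. The Calvin cycle and photorespiration list had 28 and 4, salicylate and pathogen defence 56 and 4, and glucosinolates 57 and 6. Some names stand for the same gene. List counts describe the measured genes and not the whole process.

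Among probe sets with 1 annotated gene, the largest falls were in loci with no name in the annotation, an expansin and a transcription factor. The rises given after them come from the same probe sets. Over all probe sets the largest log2 fold change was 6.89. AT3G16370 stood at −3.20, −3.53 and −3.79 in mature hypocotyls, against 3.15, 3.12 and 2.96 in young ones, a 95.8-fold fall. AT2G10940 (−6.29 ± 0.34), AT1G12080 (−6.18 ± 0.18), the expansin EXPA8 (−6.05 ± 0.21) and AT1G09750 (−5.81 ± 0.24) also fell by more than 5 log2 units; the annotation used here gives the loci shown by number no name. BZIP61, a bZIP transcription factor, had values of −1.12, −1.05 and −1.26 in mature hypocotyls, against 4.59, 4.28 and 4.10 in young ones, and fell 44.3-fold. AT1G29670 and AT1G29660 fell by 5.34 and 4.85 on the log2 scale; AT1G29660 was at −1.56, −1.49 and −1.90 in mature hypocotyls, against 3.25, 3.18 and 3.15 in young ones. In each of these genes the arrays of the 2 ages lay far apart.

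Among the rises, AT4G36430 was at 1.06, 1.90 and 1.19 in mature hypocotyls, against −4.67, −5.20 and −4.91 in young ones (79.4-fold). AT2G18370 and AT3G58550, both without a name in the annotation, were 48.8-fold and 47-fold higher. ARPN, the small copper protein plantacyanin, stood at 0.35, 1.04 and 0.35 in mature hypocotyls, against −4.65, −3.91 and −3.91 in young ones (26.6-fold higher). The spread between arrays of one age was under 1 log2 unit in each of these rises, so none rests on a single array.

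**Figure D1:**
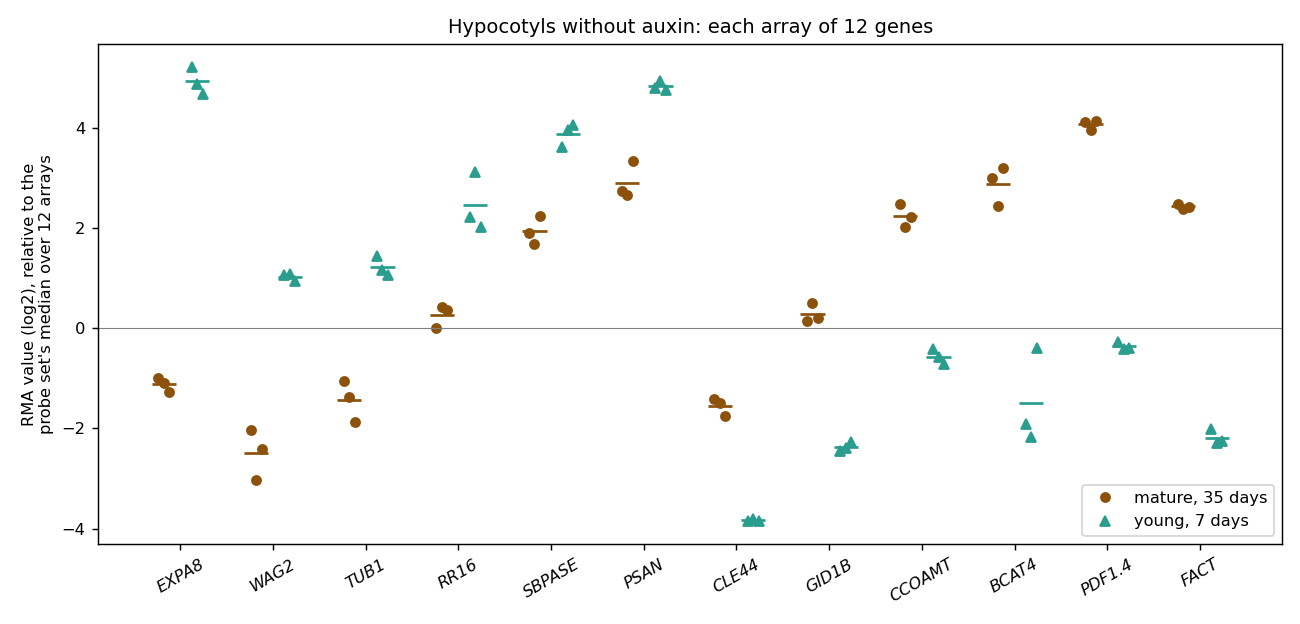
Each point is 1 array without auxin (mature, circles, left of young, triangles), the short line is the mean of 3 arrays, and the vertical axis is the log2 value relative to the probe set's median over 12 arrays. In all 12 genes the mature and young arrays are apart: EXPA8, WAG2, TUB1, RR16, SBPASE and PSAN are lower in mature hypocotyls, and CLE44, GID1B, CCOAMT, BCAT4, PDF1.4 and FACT are higher.

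Most of the measured transcripts for photosynthesis, the antennae and chlorophyll fell with age. In the thylakoid membrane, photosystems with their chlorophyll-binding antennae capture light, and the Calvin cycle in the stroma fixes carbon. Of 7 nuclear photosystem and antenna genes 6 fell and 1 was not called, with a median log2 fold change of −1.46, against −0.03 over all probe sets. PSAN, a photosystem I subunit, was at 2.73, 2.65 and 3.34 in mature hypocotyls and at 4.80, 4.93 and 4.75 in young ones, a fall of 3.78-fold (−1.92 ± 0.23, adjusted p = 8.9e-06). The antenna gene LHCB4.2 fell 3.45-fold (−1.79 ± 0.20), whereas its relative LHCB4.3 stood at 0.75, 0.70 and 0.65 in mature and 0.62, 0.87 and 0.87 in young hypocotyls, values that overlap (−0.08 ± 0.12, adjusted p = 0.63). The photosystem genes PSBY, PSAE-1 and PSBW fell by 1.49, 1.46 and 1.04.

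All 4 measured genes of the Calvin cycle and photorespiration fell, with a median of −1.59. SBPASE, the sedoheptulose bisphosphatase that regenerates the carbon acceptor, had values of 1.91, 1.68 and 2.24 in mature and 3.61, 3.96 and 4.05 in young hypocotyls (3.82-fold lower). Phosphoribulokinase (PRK) fell 3.62-fold, rubisco activase (RCA) 2.51-fold, and the photorespiratory hydroxypyruvate reductase HPR 2.37-fold. In all of them the lowest young array lay above the highest mature one.

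All 7 measured genes of chlorophyll synthesis fell too, by between 0.51 and 1.93 on the log2 scale (median −0.97). The largest fall was in CHLI2, a subunit of the magnesium chelatase that commits porphyrin to chlorophyll, at 0.76, 0.73 and 1.06 in mature hypocotyls and 2.67, 2.92 and 2.77 in young ones (−1.93 ± 0.12, adjusted p = 1.4e-08). CHLM, which methylates the next intermediate, fell 2.81-fold, and PORB, the light-dependent oxidoreductase, 1.87-fold. The smallest fall was that of GSA1, which makes the first dedicated precursor (−0.51 ± 0.08). Of 36 further genes of photosynthesis assembly and regulation 28 fell and 2 rose (median −0.72). NdhL, a subunit of the chloroplast NDH complex, fell 6.71-fold, at 0.57, 0.33 and 1.26 in mature and 3.11, 3.80 and 3.49 in young hypocotyls. The 2 that rose were SUFE2, of chloroplast iron-sulfur assembly (6.73-fold), and the thylakoid ATP carrier TAAC (2.35-fold).

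Plastid-encoded transcripts moved less evenly. Of 69 plastid genes 27 were called lower and 1 higher (median −0.47). Among the 20 that code for photosystem proteins 15 were lower and 5 not called (median −0.74), and among the 20 for ribosomal proteins and polymerase subunits 2 were lower and 18 not called (median −0.15). The photosystem II genes psbB, psbD and psbC fell 2.81-, 2.77- and 2.68-fold. psbA, for its D1 protein, was at 0.42, −0.06 and 0.99 in mature hypocotyls and 1.71, 1.42 and 1.94 in young ones (−1.24 ± 0.23, adjusted p = 0.00049). rbcL, for the large subunit of rubisco, was the single one called higher, at 0.89, 0.85 and 1.12 in mature and 0.22, 0.38 and 0.81 in young hypocotyls (0.48 ± 0.14, adjusted p = 0.0119); its call was lost without young array 1 (adjusted p = 0.0620) or mature array 3 (adjusted p = 0.0531). The plastid counts also depend on single arrays: 14 of 69 genes were lower without young array 3, 15 without mature array 1 and 14 without mature array 2, but 41 without mature array 3. Among the 20 photosystem genes these counts were 8, 9, 8 and 18, and among the 20 ribosomal and polymerase genes 1, 1, 1 and 6.

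**Figure D2:**
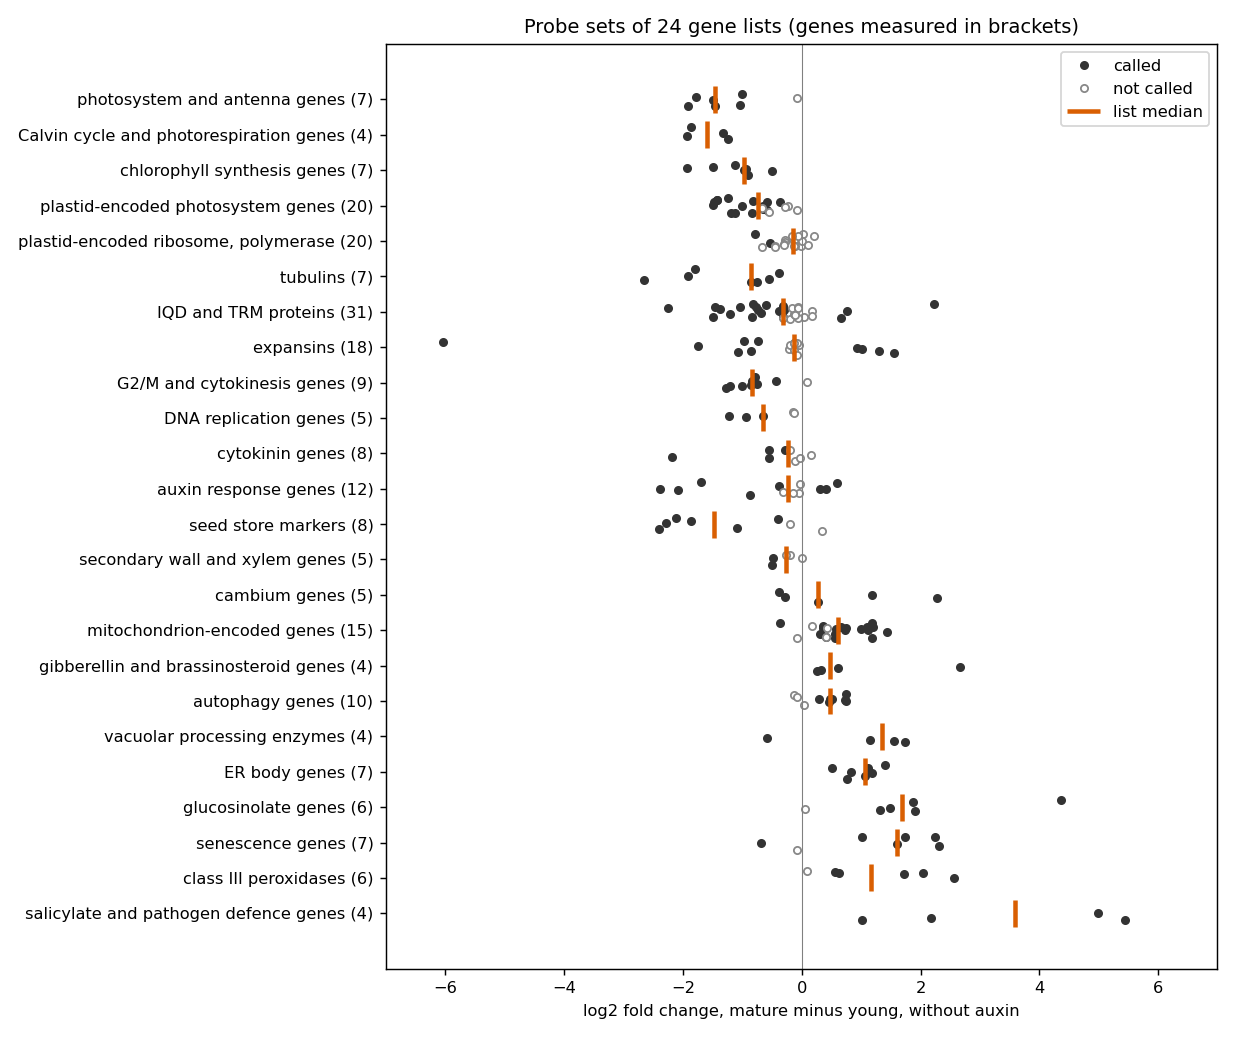
Each point is a probe set of a gene list, filled where it was called (adjusted p under 0.05) and open where not, the horizontal axis is the log2 fold change of mature minus young hypocotyls without auxin, and the orange bar is the median over the genes of the list. All points of the nuclear photosystem, Calvin cycle and chlorophyll lists lie left of 0, 1 of them open, and the 4 defence genes lie right of 1.

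Tubulin transcripts fell. Families of wall enzymes were called in both directions, as were all probe sets (22.7% higher and 22.9% lower). Tubulins, the protein of the microtubules that orient cellulose, fell in all 7 measured genes (median −0.86). TUB1 stood at −1.06, −1.36 and −1.86 in mature hypocotyls and 1.44, 1.16 and 1.06 in young ones (6.27-fold lower); TUB6 and TUB5 fell 3.76- and 3.46-fold, and TUB9 least (−0.39 ± 0.09). Of 31 IQD and TRM genes, whose products bind microtubules or calmodulin, 16 fell and 3 rose. IQD19 was 4.77-fold lower and TRM22 2.82-fold lower, whereas TRM19 was at 0.05, 0.21 and −0.22 in mature and −2.20, −2.33 and −2.10 in young hypocotyls (4.67-fold higher).

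Expansins, which loosen the wall so that cells can extend, went in both directions: of 18 genes 6 fell, 4 rose and 8 were not called. EXPA8 fell furthest, at −0.99, −1.09 and −1.27 in mature hypocotyls, against 5.22, 4.89 and 4.69 in young ones (−6.05 ± 0.21, adjusted p = 8.6e-11). EXPA16 fell 3.37-fold, while EXLA3 and EXPA4 rose 2.92- and 2.46-fold. Among 9 xyloglucan endotransglucosylases, which cut and rejoin wall xyloglucan, 3 fell and 2 rose. XTH32 stood at 0.14, 0.34 and 0.12 in mature and 3.01, 3.68 and 3.03 in young hypocotyls (8.23-fold lower), and XTH16 fell 7.98-fold. XTH18 rose 2.43-fold and XTH33 1.65-fold.

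Of 15 endoglucanases of family GH9 2 fell, 1 rose (2 without young array 2) and 12 were not called. GH9B7 was at −1.47, −1.47 and −1.47 in mature and 0.66, 0.57 and 0.53 in young hypocotyls (−2.06 ± 0.08); GH9C2 fell 2.45-fold and GH9B13 rose 1.9-fold. Among 22 TBL genes, a family that acetylates wall polysaccharides, 6 fell (3 without young array 2, mature array 1 or mature array 2) and 3 rose, led by TBL45 (13.7-fold lower) and TBL39 (3.34-fold higher).

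Most of the measured cell division transcripts were lower in mature hypocotyls. Of 9 genes of mitosis and cytokinesis 8 fell and 1 was not called (median −0.84). The 3 Aurora kinases, which act at the spindle and the forming cell plate, fell together. AUR1 had values of −1.74, −1.62 and −1.81 in mature hypocotyls and −0.64, −0.42 and −0.48 in young ones (−1.21 ± 0.10, adjusted p = 2.2e-07). AUR2 fell 2.43-fold and AUR3 2.02-fold. HTR12, the histone that marks centromeres, fell 1.69-fold and KINESIN-12B, of the phragmoplast that builds the new wall, 1.81-fold.

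Of 5 DNA replication genes 3 fell: PRL, a subunit of the replicative helicase (2.33-fold), and the polymerase alpha subunits POLA3 (1.91-fold) and ICU2 (1.57-fold). PSF2 of the same helicase complex stood at −0.14, −0.40 and −0.58 in mature and −0.24, −0.23 and −0.19 in young hypocotyls (−0.15 ± 0.12, adjusted p = 0.324), and POLD3, of polymerase delta, had a log2 fold change of −0.12 ± 0.09 (adjusted p = 0.323); the arrays of these 2 genes overlapped. SIM, which restrains mitosis in cells that go on to enlarge their genomes, was also lower (−0.54 ± 0.11). Of 7 histone genes 3 fell and 1 rose (2 without mature array 2). The one that rose was HIS1-3, a linker histone known from drought, at 3.33, 3.54 and 3.68 in mature and 2.29, 2.30 and 2.28 in young hypocotyls (2.34-fold).

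Among hormone genes, those of auxin were mixed and those of gibberellin perception higher. Of 12 auxin response genes 5 fell and 3 rose. The GH3 enzymes couple auxin to amino acids and are classic early auxin targets: WES1 was at −3.82, −4.01 and −3.79 in mature and −1.04, −1.56 and −1.89 in young hypocotyls (5.2-fold lower), GH3.3 fell 4.25-fold and GH3.17 rose 1.51-fold. The repressor IAA29, which is also light-regulated, fell 3.23-fold, and IAA18 1.83-fold. Of 6 genes of auxin synthesis, transport and signalling 2 fell. WAG2, a kinase that directs the auxin exporters of the PIN family, stood at −2.04, −3.02 and −2.42 in mature hypocotyls and 1.07, 1.08 and 0.95 in young ones (−3.52 ± 0.19, adjusted p = 5e-09). The other fall was lost without young array 1, mature array 1 or mature array 2, which leaves 1 of 6 in each case.

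Of 8 cytokinin genes 4 fell, 2 without mature array 1. RR16, a response regulator that cytokinin induces, was at 0.01, 0.42 and 0.37 in mature hypocotyls and 2.21, 3.13 and 2.01 in young ones (4.54-fold lower). The 4 measured gibberellin genes were all called higher. The receptor GID1B stood at 0.15, 0.51 and 0.21 in mature and −2.45, −2.39 and −2.28 in young hypocotyls (2.66 ± 0.10, adjusted p = 1.6e-10). Its relative GID1A rose 1.54-fold and the F-box protein SLY1, which removes the DELLA repressors, 1.25-fold. The call of GID1C was marginal (0.25 ± 0.10, adjusted p = 0.0491), with overlapping arrays, and was lost without young array 2 or 3 or mature array 1 or 2 (adjusted p between 0.0904 and 0.190).

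The measured transcription factors that start lateral roots and callus did not differ detectably before auxin was given. None of the 4 measured was called; 1 was at an unadjusted p under 0.05, LBD16. LBD16 was at −1.99, −2.20 and −2.35 in mature and −2.27, −2.50 and −2.58 in young hypocotyls (0.27 ± 0.11, adjusted p = 0.0588). It was called without young array 1 (adjusted p = 0.0209) or mature array 3 (adjusted p = 0.0232), and with low bioC signal as a term (adjusted p = 0.0348). LBD29, its partner in callus formation, was at −3.14, −3.17 and −3.39 in mature and −3.04, −3.14 and −3.34 in young hypocotyls (−0.06 ± 0.12, adjusted p = 0.732). Untreated values of LBD16 and LBD29 all lay below their medians, and whether they were near background cannot be read from centred values. The log2 fold changes were 0.26 ± 0.27 for PUCHI and 0.03 ± 0.11 for BBM, and the arrays of all 4 genes overlapped.

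Of 5 cambium genes 3 were called higher and 2 lower, though 3 of these calls depended on single arrays. CLE41 and CLE44 encode the same phloem-derived peptide, TDIF, which keeps cambium cells dividing and from becoming xylem. CLE44 was at −1.41, −1.49 and −1.76 in mature hypocotyls and −3.85, −3.81 and −3.85 in young ones (2.28 ± 0.10, adjusted p = 9.2e-10), and CLE41 rose 2.27-fold. The other 3 cambium genes had small changes that single arrays decided. MOL1, a receptor kinase, was called at an adjusted p of 0.046 (0.27 ± 0.10) and lost the call without young array 2 or 3 or mature array 1 or 2 (adjusted p between 0.0924 and 0.187). AT1G08590 and AT4G28650, the PXL1 and PXL2 relatives of the TDIF receptor, had log2 fold changes of −0.38 ± 0.12 and −0.29 ± 0.09. The call of PXL1 was lost without young array 1 (0.0601), young array 3 (0.0558) or mature array 3 (0.0568), and that of PXL2 without young array 1 (0.0507) or mature array 1 (0.0775), all adjusted p.

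In the phloem list OPS, a regulator of phloem cell identity, rose 2.12-fold and the sucrose exporter SWEET11 fell 4.77-fold, at 2.18, 1.36 and 1.68 in mature and 4.19, 3.83 and 3.96 in young hypocotyls. SWEET13, another exporter, had overlapping arrays (−0.09 ± 0.18, adjusted p = 0.732). Of 5 genes of xylem and secondary wall 2 fell and 3 were not called (median −0.27). The xylan genes GUT2 and IRX15 fell 1.4- and 1.41-fold. IRX15 lost its call without young array 2 (adjusted p = 0.0699) or mature array 2 (adjusted p = 0.0693). GUT1, a relative of GUT2, was at −0.09, 0.01 and −0.07 in mature and −0.12, −0.01 and −0.02 in young hypocotyls (0.0035 ± 0.09, adjusted p = 0.981).

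Genes that build and polymerise phenolic wall compounds were called in both directions. Of 4 lignin genes 3 rose and 1 fell. CCOAMT, of the caffeoyl-CoA O-methyltransferase family that makes lignin precursors, was at 2.49, 2.02 and 2.23 in mature hypocotyls and −0.42, −0.57 and −0.71 in young ones (2.81 ± 0.17, adjusted p = 1.4e-08), and HCT, an earlier enzyme of the pathway, rose 1.35-fold. The peroxidases split: AT5G66390 (PRX72), known from lignification of stems, fell 3.1-fold and AT5G64120 (PRX71) rose 3.29-fold. Of 6 genes in the class III peroxidase list, which shares PRX71 with the lignin list and does not hold PRX72, 5 rose and 1 was not called (median 1.17). This list is only a part of the family, so its counts and median do not describe all class III peroxidases. AT2G41480 (PRX25) stood at 0.14, −0.09 and −0.35 in mature and −2.51, −2.65 and −2.84 in young hypocotyls (5.91-fold higher), and Prx37 rose 4.14-fold. UGT72E1 and UGT72E2, which attach glucose to lignin precursors, rose 5.18- and 5.55-fold, whereas their relative UGT72E3 had a log2 fold change of 0.22. BGLU45, a glucosidase that can release these precursors, was at 2.99, 3.49 and 3.52 in mature and 0.55, 0.53 and 1.07 in young hypocotyls (6.14-fold higher).

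Suberin could be read from 2 genes alone. FACT makes the alkyl caffeates of suberised layers. It was at 2.49, 2.38 and 2.42 in mature hypocotyls, against −2.01, −2.29 and −2.25 in young ones (4.62 ± 0.11, adjusted p = 8.3e-12). SHN3, a regulator of surface lipids, had overlapping arrays (−0.20 ± 0.16, adjusted p = 0.357).

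Some of the measured defence transcripts were among the largest rises. All 4 measured genes of the salicylate and pathogen list rose, with a median of 3.58. OSM34, an osmotin of the thaumatin-like defence proteins, was at 3.15, 3.48 and 3.21 in mature and −1.90, −2.70 and −1.87 in young hypocotyls (5.44 ± 0.23, adjusted p = 5.6e-10). AT4G16260 rose 31.6-fold, GRX480, a salicylate-induced glutaredoxin, 4.55-fold and SAG101, a partner of the immune regulator EDS1, 2.02-fold. Of 15 defensins and thionins, small antimicrobial peptides, 3 rose, 4 fell and 8 were not called; 2 fell without young array 3, mature array 2 or mature array 3. PDF1.4 was at 4.12, 3.96 and 4.13 in mature and −0.28, −0.41 and −0.39 in young hypocotyls (21.6-fold higher), and PDF2.1 rose 22.1-fold. LCR68 fell 5.03-fold and the thionin THI2.2 4.32-fold, with young values of THI2.2 spread over 2.64, 1.85 and 1.22. Of 7 jasmonate and wound genes 3 rose and 2 fell, but none fell without young array 3, mature array 2 or mature array 3, and 1 without young array 1. OPCL1, of jasmonate synthesis, rose 3.58-fold and the jasmonate regulator MYC3 1.98-fold.

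Senescence genes rose in 5 of 7 cases and fell in 1 (median 1.60). WRKY6 and WRKY53, transcription factors of leaf senescence, rose 4.71- and 3.32-fold. YLS5, identified in yellowing leaves, was at 0.17, 0.24 and 0.10 in mature and −2.20, −2.47 and −1.77 in young hypocotyls (4.97-fold higher). SAG29, a sugar transporter gene of senescing tissue, rose 3.04-fold with a wide spread (−0.43, 0.09 and 0.71 in mature and −1.38, −2.19 and −0.87 in young hypocotyls), and WRKY22 fell 1.61-fold. The chlorophyll-degrading NOL was not called (−0.08 ± 0.08, adjusted p = 0.468). Of 10 autophagy genes 7 rose, none fell, and the changes were small (median 0.47): ATG8G and APG8H, both of the ATG8 family that coats the autophagosome, rose 1.68- and 1.67-fold.

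Vacuolar processing enzymes, proteases of the vacuole that act in storage and in cell death, rose in 3 of 4 genes. BETA-VPE was at −0.21, 0.17 and 0.54 in mature and −1.68, −2.01 and −1.01 in young hypocotyls (3.32-fold higher), GAMMA-VPE rose 2.95-fold and ALPHA-VPE 2.22-fold. DELTA-VPE was called lower (−0.58 ± 0.22, adjusted p = 0.0415), but 1 young array set its size: young values were 0.17, 0.16 and 1.26, and without young array 3 the log2 fold change was −0.21 (adjusted p = 0.0709). Leaving out any mature array also ended that call (adjusted p between 0.0636 and 0.121). Of 7 calmodulin-like genes 5 rose and 1 fell, led by CML41 at 0.33, 0.32 and 0.33 in mature and −2.18, −2.15 and −2.02 in young hypocotyls (5.43-fold higher). WRKY47 rose 3.82-fold.

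Glucosinolate genes rose. Glucosinolates are the mustard oil glucosides of the cabbage family, and 5 of 6 measured genes were higher and none lower (median 1.68). BCAT4, which starts the lengthening of the methionine side chain, was at 3.00, 2.44 and 3.20 in mature and −1.92, −2.16 and −0.39 in young hypocotyls (20.7-fold higher); young array 3 lay well above the other young arrays and still below every mature one. The transporters GTR2 and GTR1, which load glucosinolates into the phloem, rose 3.74- and 2.81-fold. GSTU20 and UGT74B1, of core structure synthesis, rose 3.66- and 2.49-fold, and AOP3, of side chain modification, had overlapping arrays (0.05 ± 0.13, adjusted p = 0.796). All 7 genes of the ER body list, which also holds lectins and a transcription factor, rose (median 1.06). The ER body is a store of glucosidases that act on such compounds. NAI1, its transcription factor, rose 2.65-fold, NAI2, which shapes the body, 2.28-fold, and the lectin JAL33 2.18-fold. PYK10, the main glucosidase of the body, rose least, at 0.32, 0.52 and 0.49 in mature and −0.17, −0.01 and 0.01 in young hypocotyls (1.42-fold).

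Families of detoxification were called in both directions, as were all probe sets (22.7% higher and 22.9% lower). Their counts are therefore not read as a trait of these families. UDP-glycosyltransferases rose in 16 and fell in 8 of 47 genes (median 0.10; 5 fell without young array 2), glutathione S-transferases in 7 and 2 of 14, and cytochrome P450 genes in 6 and 4 of 22. CYP71B23 was at 1.66, 1.93 and 1.82 in mature and −1.57, −1.49 and −0.90 in young hypocotyls (8.72-fold higher), and its relative CYP71B24 rose 5.24-fold. UGT87A2 and UGT73B5 rose 6.41- and 4.93-fold, and GSTU15 and GSTU26 3.74- and 3.47-fold, while GSTU18 fell 2.97-fold.

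Most of the measured transcripts of seed storage and oil use were lower in mature hypocotyls. Of 8 seed store markers 6 fell and none rose (median −1.48), with 1 higher without young array 3. M17 and M10, of the late embryogenesis class, fell 4.35- and 5.32-fold; M10 was at −0.58, −0.45 and −0.56 in mature and 1.88, 2.06 and 1.69 in young hypocotyls. Isocitrate lyase (ICL), which turns seed oil into sugar, fell 4.87-fold, with young values of 1.80, 1.64 and 3.26 against mature values of −0.15, −0.04 and 0.04. The storage protein gene PAP85 fell 3.66-fold, and the oil body gene OLEO3 had overlapping arrays (−0.21 ± 0.14, adjusted p = 0.282). Of 17 genes in the sugar transporter list 5 fell and 1 rose. SAG29, given above with the senescence genes, is outside this list and rose by 1.60 on the log2 scale. SWEET2, of the vacuole membrane, was at 0.49, 0.23 and 0.33 in mature and 2.63, 2.75 and 1.81 in young hypocotyls (4.13-fold lower), SWEET1 fell 1.99-fold and the vacuolar fructose carrier SWEET17 rose 1.59-fold.

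Most transcripts of the mitochondrion-encoded genes counted here rose. The list holds the genes of the respiratory chain and cytochrome c maturation and matR. Of 15 genes 10 were higher and 1 lower (median 0.61), and none was lower when any single array other than young array 1 was left out. The complex I genes nad9 and nad6 rose 2.71- and 2.28-fold; nad9 was at 1.47, 1.73 and 1.13 in mature and 0.04, 0.05 and −0.07 in young hypocotyls. Of 14 nuclear genes of the TCA cycle 7 rose and 3 fell, with the succinate dehydrogenase subunit SDH1-1 2.08-fold higher.

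Few markers of other organs were measured, so the lists do not survey those organs. For root cells 41 names were written and 3 genes measured. Shoot meristem and flower had 32 and 3, and leaf epidermis and stomata 31 and 5. Root markers, the root hair expansins EXPA7 and EXPA18 and the root stem cell gene AGL42, had log2 fold changes between −0.13 and 0.07, and none of the 3 was called (0 at an unadjusted p under 0.05). Of 3 shoot meristem and flower markers UFO and AMS overlapped between ages, and CLV3, a stem cell peptide of the shoot tip, was at 0.53, 0.41 and 0.71 in mature and −0.08, 0.02 and 0.07 in young hypocotyls (1.46-fold higher). Of 5 genes of leaf epidermis and stomata 2 fell and 1 rose; none rose without young array 1, young array 2 or mature array 1. STOMAGEN, which green mesophyll makes to promote stomata, fell 4.69-fold, at 0.22, 0.01 and 0.13 in mature and 2.27, 2.55 and 2.23 in young hypocotyls, and SPCH, which starts the stomatal lineage, 1.48-fold. These 2 fell alongside the photosynthesis genes; their part in that result was not tested. The flowering repressor SNZ was at −0.10, −0.11 and −0.07 in mature and 1.91, 2.05 and 2.09 in young hypocotyls (4.32-fold lower), and AGL24, which promotes flowering, rose 1.82-fold. Of 10 genes used as stable references 2 were called higher and 1 lower, with log2 fold changes between −0.39 and 0.43.

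The age difference was then set beside the one after 1 day of auxin, whose group means come from the other 6 arrays. The untreated and auxin arrays also differed in controls, as given above. With auxin 6206 probe sets were called (27.3%), 3239 higher (14.2%) and 2967 lower (13%). Of the 5171 probe sets higher without auxin 1759 (34.0%) were also higher with it, which is 54.3% of those higher with auxin. Of the 5215 lower without auxin 1528 (29.3%) were also lower with it, or 51.5% of those lower with auxin. A further 1067 were called in opposite directions, 517 higher without and lower with auxin and 550 the reverse. Across the 22746 probe sets Pearson's r of the 2 differences was 0.519, given as a description. A test of the difference itself, the age effect with auxin minus that without, was called for 7962 probe sets (35%), 3973 positive and 3989 negative.

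**Figure D3:**
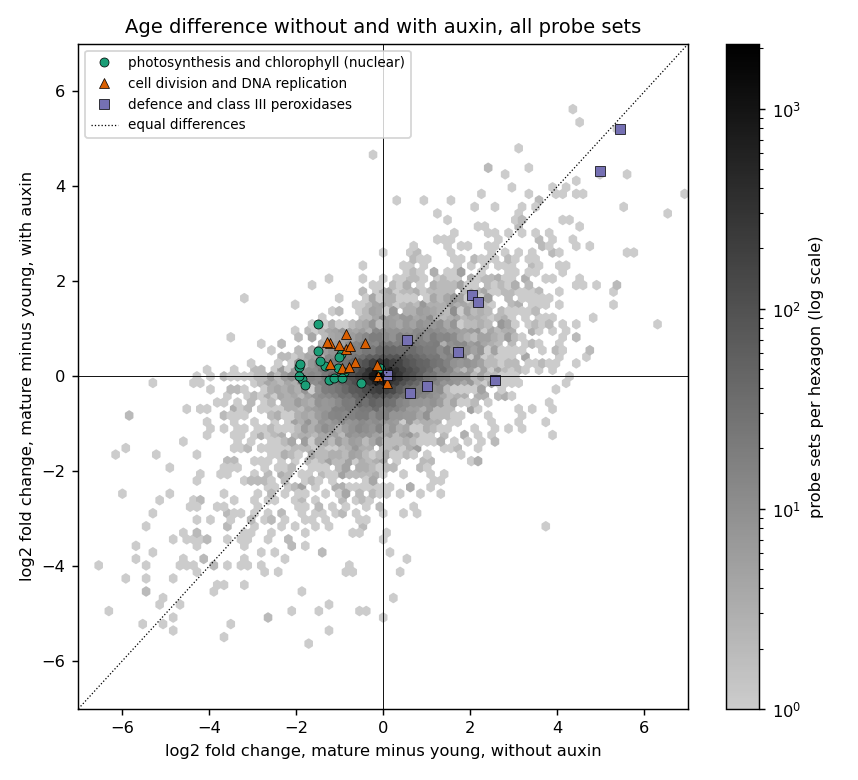
Each grey hexagon counts probe sets (darker for more, on a log scale) by their log2 fold change of mature minus young hypocotyls, without auxin on the horizontal and with auxin on the vertical axis, and the dotted line marks equal differences. Photosynthesis and chlorophyll genes (green) and cell division genes (orange) lie mostly at negative values without auxin and around or above 0 with it.

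Nuclear genes of the photosystems, the Calvin cycle and chlorophyll synthesis that were lower in mature hypocotyls without auxin were higher or not called with it. With auxin none of the 18 genes of the photosystem, Calvin cycle and chlorophyll lists was lower and 4 were higher. Of the 36 genes of assembly and regulation 4 were lower and 4 higher with auxin. Of the 20 plastid-encoded photosystem genes 11 were called lower with auxin and none higher (median −0.60), and the difference between the age effects was called in 3. PSBY had an age difference of 1.10 with auxin and −1.49 without, and that difference was itself called (2.59 ± 0.20, adjusted p = 7e-07). PSAN had one of 0.26 with auxin (adjusted p = 0.478) and −1.92 without, LHCB4.2 of −0.19 and −1.79, PRK of −0.04 and −1.86, and CHLM of 0.53 and −1.49.

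Most of the measured genes of mitosis and cytokinesis changed sign. With auxin 7 of the 9 genes of mitosis and cytokinesis were higher in mature hypocotyls and none lower (median 0.66), and the difference between the age effects was called in 8. AUR1 was at 1.15, 1.11 and 1.37 in mature hypocotyls with auxin, against 0.44, 0.42 and 0.64 in young ones with auxin, an age difference of 0.71 that differed from the one without auxin (1.92 ± 0.14, adjusted p = 3.9e-07). AUR2, AUR3, HTR12 and KINESIN-12B had age differences of 0.73, 0.66, 0.64 and 0.89 with auxin. The replication genes PRL and ICU2 were not called with auxin (0.27 and 0.30, adjusted p = 0.133 and 0.134).

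**Figure D4:**
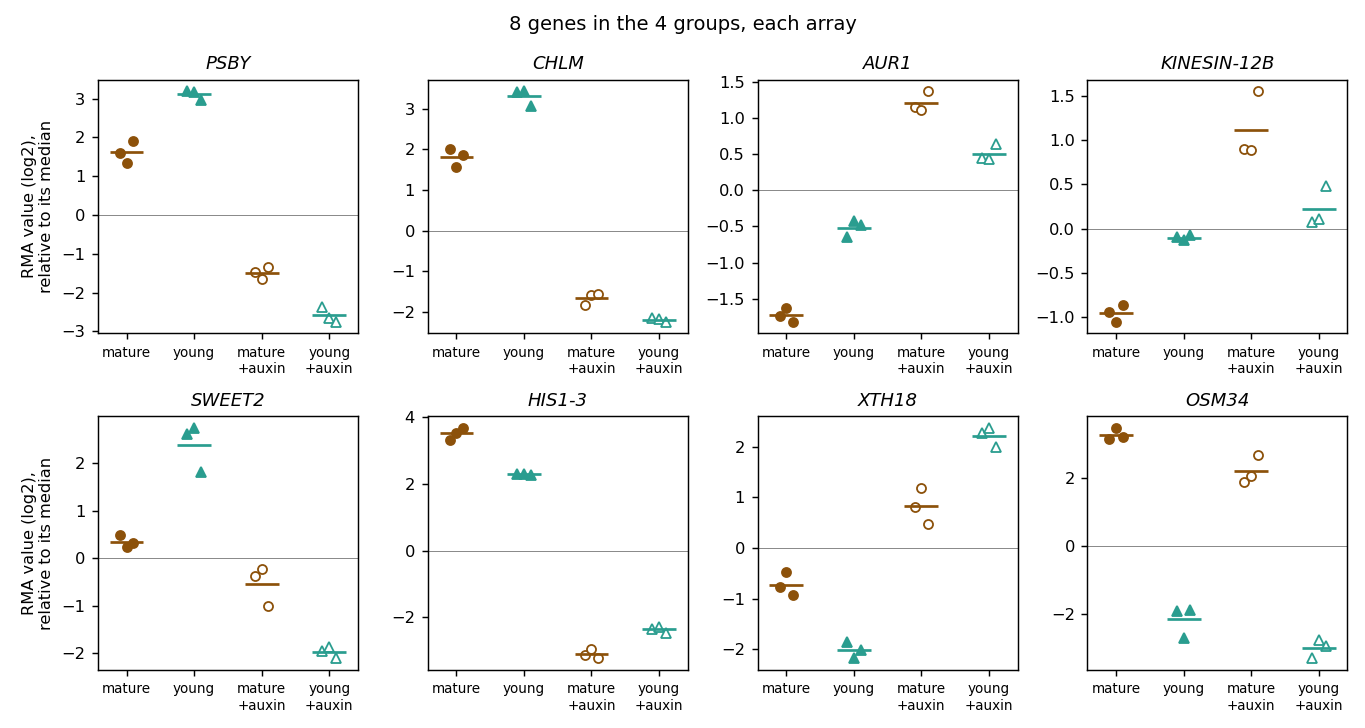
Each panel shows 1 gene, each point 1 array and each line the mean of 3, with mature (brown circles) left of young (green triangles), filled without and open with auxin, on the log2 scale relative to the probe set's median. AUR1 and KINESIN-12B are lower in mature than in young hypocotyls without auxin and higher with it, PSBY, CHLM and SWEET2 likewise, HIS1-3 and XTH18 the other way round, and OSM34 is higher in mature hypocotyls in both.

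Several of the largest age differences without auxin were smaller with it. AT4G36430 had an age difference of 1.01 with auxin and 6.31 without, AT3G46490 of −0.08 and −5.24, and ARPN of 0.48 and 4.73. AT1G09750 and AT1G12080 fell by 0.76 and 1.65 with auxin, and EXPA8 by 2.46. The difference was called in all 6. Some genes of this paragraph were named because their difference was large and called, so for them the call is not a separate result. AT1G71695 changed sign (1.63 with auxin and −3.15 without), as did SWEET2 (1.44 and −2.05), HIS1-3 (−0.74 and 1.23) and XTH18 (−1.39 and 1.28). In AT5G57785 and AT1G80130 the age difference was large with auxin (−4.14 and −3.82) and small without (0.33 and 0.48). The difference without auxin of AT5G57785 was not called over all arrays, and was called without mature array 3 (0.57, adjusted p = 0.014).

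Among the hormone and vascular genes CLE44 had an age difference of 0.05 with auxin (adjusted p = 0.801) and 2.28 without, GH3.3 of 0.03 and −2.09, RR16 of 0.09 and −2.18, and GID1B of 0.95 and 2.66. CLE41 rose at both (0.87 with and 1.18 without), and the test of its difference was not called (adjusted p = 0.148). WAG2 and TUB1 fell by 2.91 and 3.00 with auxin, and neither difference was called (adjusted p = 0.103 and 0.398). BCAT4 and GTR2 had age differences of 2.88 and −0.21 with auxin, both called smaller than without. PDF1.4 was smaller with auxin (1.99), whereas OSM34, AT4G16260 and PDF2.1 rose by 5.21, 4.33 and 4.16 with auxin, with no called difference (adjusted p = 0.649, 0.257 and 0.376). FACT rose in both (3.83 with auxin), by less with it, and AT1G29660 fell in both (−5.07). SAG29 and JAL33 rose by 2.91 and 2.25 with auxin, called larger than without. LBD16, LBD29 and PUCHI were not called with auxin either (−0.09, 0.25 and 0.76).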

How the data were processed

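Gene expression was measured in hypocotyls with Affymetrix arrays in 12 samples, 3 in each of 4 groups (mature or young, with or without auxin). The deposited values are log2 expression values made with RMA, per the submitters' processing notes. RMA corrects background, normalises arrays to one distribution and summarises probe sets. The base of 2 is assumed from RMA, and the software version is not given in the sources used here. As deposited, each probe set has a median of 0 over the 12 arrays (22810 of 22810 rows), so scale and direction between arrays are kept and absolute levels are lost. Dim probe sets could therefore not be filtered out, and precision is limited by the 3 arrays of each group.

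From these values 22746 probe sets were tested, after 64 controls were left out. Of these 13513 have 1 gene in the array annotation used here, 503 have several and 8730 have none listed; 13436 of the 13513 were matched to RefSeq (TAIR10.1) for symbols. One model of 4 groups was fitted with limma 3.58.1 in R 4.3.3 (8 residual degrees of freedom). Tests were two-sided, with Benjamini-Hochberg adjustment across the 22746 probe sets; "called" means an adjusted p under 0.05. Each "±" beside a log2 fold change is its standard error, with n = 3 arrays per age. The fit was also run on simulated data with independent normal noise and changes in a small part of the probe sets. The real data held far more calls, so that run is not used as support for the results.

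Genes were named by a rule: the 15 largest called rises and 15 falls with non-overlapping arrays, up to 4 each way per list, every gene of lists with at most 8 measured, the 8 largest called differences each way between the age effects, and a few fixed genes. A gene with several probe sets counts as called in a list only if all agree. The members, lists and rule were chosen with earlier results of these data known, and some lists were written after the array annotation was read. No promoter sequences were used, so the planned motif count was not made.

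Replicate numbers were checked as a pairing by the correlation of deviations from group means. In the untreated groups it was 0.221, 0.0744 and 0.0313 for arrays 1 to 3, not all above 0.1, so these arrays were treated as unpaired. In the auxin groups it was 0.250, 0.158 and 0.122, which pairs these by that measure alone; the values reported are from the fit without a block. The alternatives tried were a replicate block, the 6 arrays alone, each array left out, 2 other scalings, subsets by bioC signal or that signal as a term, a robust spread, no _s_at or _x_at probe sets, and the mean of a gene's probe sets.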

Additional observations from a re-analysis of the deposited data

Results flagged for a closer look

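The age difference was not the same with and without auxin in 7962 of 22746 probe sets, by a limma test of the difference itself at an adjusted p under 0.05, and 34 of the 44 genes whose age differences were set side by side were among them. Some of these 44 were chosen for a large difference of this kind, so their share is not to be read against that over all probe sets. The values that follow are the log2 age difference (mature minus young) with auxin minus that without.

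It was positive, so the mature hypocotyls stood higher relative to the young ones once auxin was present, in 22 genes. Cell division and replication genes were ICU2 (0.95), HTR12 (1.39), PRL (1.49), AUR3 (1.67), KINESIN-12B (1.75), AUR1 (1.92) and AUR2 (2.02). Photosynthesis and chlorophyll genes were LHCB4.2 (1.60), PRK (1.81), CHLM (2.02), PSAN (2.18) and PSBY (2.59). The hormone, sugar and wall genes were GH3.3 (2.11), RR16 (2.27), SWEET2 (3.49) and EXPA8 (3.59), and JAL33 (1.12) and SAG29 (1.30) also belonged here. The largest were the loci AT1G12080 (4.53), AT1G71695 (4.78), AT1G09750 (5.04) and AT3G46490 (5.16).

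It was negative in 12 genes: AT4G36430 (−5.30), AT5G57785 (−4.47), AT1G80130 (−4.31), ARPN (−4.25), XTH18 (−2.67), PDF1.4 (−2.45), CLE44 (−2.23), GTR2 (−2.12), HIS1-3 (−1.97), GID1B (−1.71), BCAT4 (−1.49) and FACT (−0.79). No group of 3 arrays was large enough for a test of single outlying arrays.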

How the results depend on the processing

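Log2 fold changes stayed the same with the replicate block, only the arrays of the groups compared, low bioC signal as a term or the robust spread. The direction of a call could therefore not change there, nor without _s_at and _x_at probe sets, which only leaves probe sets out. The other alternatives computed by probe set re-use arrays that gave the calls, so they are not an independent check. In these all 10386 probe sets called without auxin kept their direction, except with array 3 of the untreated groups alone, where 10325 did. That setting leaves 1 array per age, whose spread is assumed to be like that of the auxin groups, and calls 5574 probe sets for age without auxin, 4336 for the difference between age effects and 260 genes of the lists (425 over all arrays). One value per gene, with fewer features tested, gave 5424 calls without auxin, 1460 of them 2-fold or more, 3213 with auxin and 4044 for the difference. Leaving out single arrays gave 9084 to 9878 calls without auxin, 2928 to 3225 at 2-fold or more, 4975 to 5574 with auxin, 6982 to 7856 for the difference and 370 to 424 list genes. With the replicate block the counts were 10634, 6462 and 8213 for age without auxin, with auxin and the difference, and no call of a named gene changed. Of 186 named genes none changed direction while called, and 26 lost their call in at least 1 setting, 24 of them with array 3 alone. Of 67 gene lists the count of called genes moved by over 1.5 times in 38 in at least 1 setting, in 36 with array 3 alone and in 15 with a single array left out. The robust spread changed no count. The cause of each change was not tested. Centring and RMA leave the signal over background unknown.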

Other observations

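Further families held large age differences in both directions. All probe sets were also called both ways (22.7% higher and 22.9% lower), so the counts are not read as a trait of these families. Of 29 serine carboxypeptidase-like genes 10 were higher and 5 lower in mature hypocotyls: scpl31 was at 2.12, 1.74 and 2.11 in mature hypocotyls, against −0.09, −0.02 and 0.13 in young ones, and scpl48 rose 3.52-fold, while scpl25 and SCPL34 fell 7.23- and 4.74-fold. Of 10 subtilases, secreted proteases, 3 rose and 3 fell. SBT3.3 and SBT3.5 rose 4.01- and 3.32-fold, and SBT1.3 was at −0.45, −0.22 and −0.25 in mature hypocotyls, against 2.13, 2.26 and 2.02 in young ones. The tetraspanin TET7, a membrane protein, fell 5.64-fold.

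Of 17 bZIP transcription factors 8 rose (5 without young array 2 or mature array 2) and 5 fell. Besides BZIP61, BZIP34 fell 5.95-fold, and bZIP58 and bZIP44 rose 2.66- and 2.36-fold. The U-box ubiquitin ligases PUB23 and PUB24, known as brakes on immune signalling, rose 3.36- and 4.29-fold, and PUB25 fell 2.14-fold. Of 4 genes of iron, zinc and sulfur 3 rose: the metallothionein MT1C (2.51-fold) and the iron deficiency regulators PYE (1.67-fold) and BHLH101 (1.63-fold). RALFL34, a peptide of the RALF family, fell 6.32-fold, with values of −1.69, −1.79 and −1.95 in mature hypocotyls and 0.88, 0.88 and 0.79 in young ones.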
